A study of Mus musculus with 6 samples.

Results

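The genes of the Notch signaling pathway were followed in dissected mouse cortex at postnatal day 7 (P7). They are 39 genes named by their symbols, of 24972 genes in the table of normalized counts, and they were grouped by role as 4 receptors, 7 ligands, 4 nuclear cofactors, 17 processing enzymes and modifiers and 7 targets. All 39 were found in the table and all 39 passed the filter on low values, a normalized count of at least 10 in at least 3 libraries. The rule picks genes by symbol and uses no measured value, but the list was made with earlier results of these data known, and Dtx4, a member, is among the genes that the study names as changed in these libraries.

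RNA of 3 libraries labelled wildtype and 3 labelled Zmiz1-KO was sequenced at P7. The wildtype animals were Zmiz1f/f and carried no Cre, and the Zmiz1-KO animals were Zmiz1f/f;Emx1Cre, so both groups carried the floxed alleles of Zmiz1. Cre driven by Emx1 acts in the progenitors of the cortex and so in the excitatory neurons and many of the glia born from them, but not in interneurons, endothelial cells, pericytes or microglia, which come from elsewhere and were part of the dissected tissue. The comparison asks which genes differ in a cortex in which Zmiz1, a transcriptional co-regulator known to act with Notch1, was deleted from the progenitors. Only the Zmiz1-KO animals carried Cre, so an effect of Cre itself cannot be told apart from that of the deletion. No sex, litter or batch is given, nor is it stated whether a library holds 1 animal or a pool, so the p values measure the spread between these libraries.

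Notch receptors are cleaved at the cell surface after a ligand on a neighboring cell pulls on them, first by an ADAM protease and then by the gamma-secretase complex. The freed intracellular domain enters the nucleus, binds Rbpj with a Mastermind coactivator and switches on targets such as the Hes and Hey repressors. In the cortex the pathway is best known for keeping progenitors undifferentiated, for astrocyte formation and for the growth of blood vessels.

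Zmiz1 itself lies on chromosome 14 (GRCm38, 25459185 to 25666743). It had 8119, 7929 and 7461 normalized counts in wildtype and 9944, 9779 and 9660 under the Zmiz1-KO label. The gene that should be deleted was thus higher under the label of its deletion, by 0.32 on the log2 scale (95% interval 0.24 to 0.41, limma adjusted p = 0.00125). Values are summed over whole genes, so transcripts that lost the floxed exons cannot be separated from intact ones, and every direction below rests on the labels.

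Of the 39 Notch genes, 0 passed a limma adjusted p of 0.05, a threshold that 0.411% of all 15800 tested genes met. At an adjusted p of 0.1, Dtx4 alone passed and was lower in the libraries labelled Zmiz1-KO, against 0.671% of all tested genes. An unadjusted p under 0.05 was reached by 5 members (Dll4 and Dtx3 higher, Ncstn, Mib1 and Dtx4 lower), which is 12.8% of them, against 11.0% of all tested genes, 5.13% higher and 5.84% lower. The libraries of one genotype all exceeded those of the other in 6 members, or 15.4%, against 16.3% of all tested genes, with 4 members higher (8.1% of all tested genes) and 2 lower (8.16%) under the Zmiz1-KO label. By all of these counts except the one at an adjusted p of 0.1, which rests on Dtx4, the Notch genes stood near the whole table. An exact permutation test of 3 libraries against 3 cannot give a two-sided p below 0.1 for a single gene.

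The sizes of the differences were small and in many genes well bounded. On the log2 scale the 39 differences lay between -0.20 and 0.25, with a median of 0.0015, against -0.000175 over all tested genes, and 20 were above and 19 below 0. The median size of the change was 0.059 in the members and 0.075 over all tested genes. For 31 of the 39 members the 95% interval of the difference stayed within 1.25-fold either way, and for 38 it stayed within 1.5-fold, with Dlk1 as the exception. Of all tested genes, 61.0% had an interval within 1.25-fold and 79.4% within 1.5-fold. No member had a value under 65.1 normalized counts, while the filter admitted genes with 10. These sizes and shares were therefore not matched for level.

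**Figure D1:**
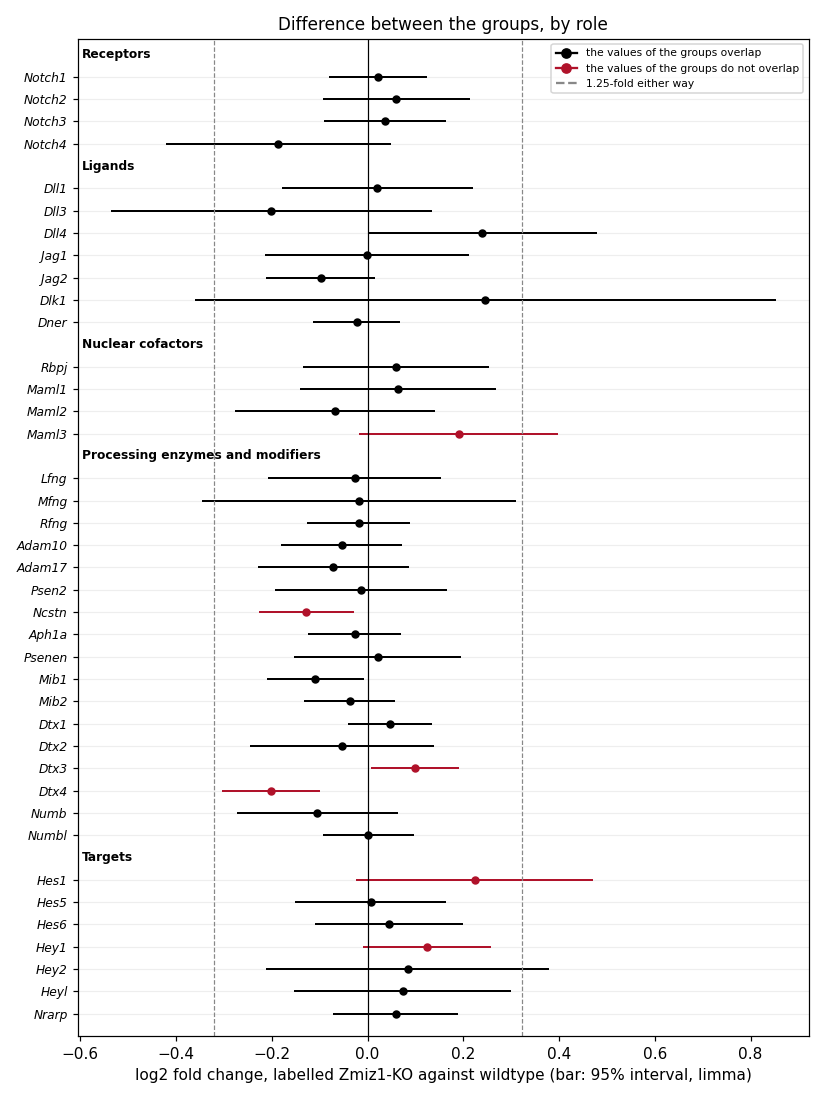
Log2 fold change of each Notch pathway gene in the libraries labelled Zmiz1-KO against wildtype (point) with its 95% interval from limma (bar), grouped by role. Red marks the 6 genes whose groups did not overlap, and the dashed lines stand at 1.25-fold either way. Most intervals cross 0, those of Ncstn, Mib1 and Dtx4 lie below it, and those of Dll4 and Dtx3 lie above it.

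Levels were compared between genes as normalized counts per kilobase of merged exons, a scale on which the members spanned 193-fold in wildtype. At the top stood Dner, a neuronal ligand that lacks the DSL domain of the Delta and Jagged ligands, with 3925 ± 242 normalized counts per kilobase (SD, n = 3). The deltex gene Dtx3 followed with 2306 ± 27.4 (SD, n = 3) and Rfng, a glycosyltransferase of the Notch receptor, with 1487 ± 67.5 (SD, n = 3). The lowest was the non-canonical ligand Dlk1, with 20.3 ± 9.48 (SD, n = 3). In the order of the 39 wildtype levels, 20 of the 38 pairs of neighbors had libraries that overlapped, so their order is not resolved.

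**Figure D2:**
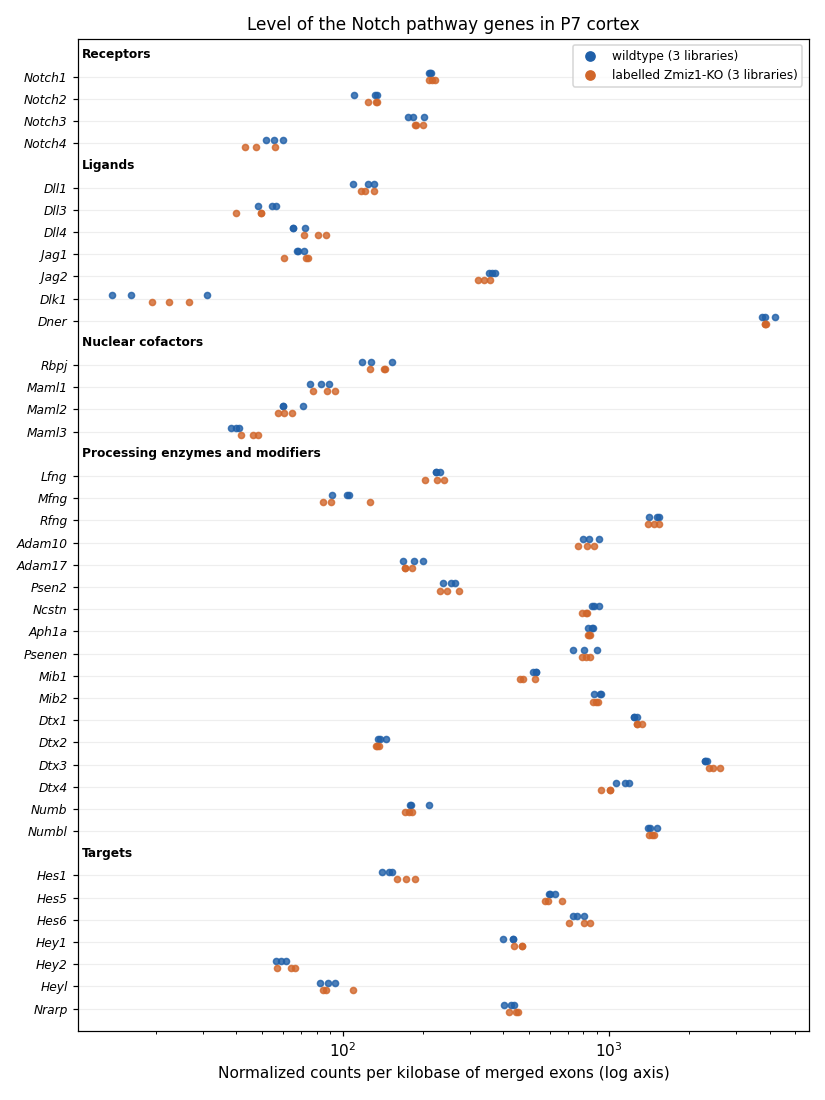
Level of each Notch pathway gene in normalized counts per kilobase of merged exons (log axis), by role, with 1 point for each of the 3 wildtype (blue) and 3 Zmiz1-KO labelled (orange) libraries. Dner lies highest and Dlk1 lowest, and the groups lie on top of each other for most genes.

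Among the receptors, Notch1 was the most abundant per kilobase, and the order of all 4 was the same in both groups with no overlap between neighbors. Notch1, on chromosome 2 from 26457903 to 26516663, stood at 214 ± 2.03 normalized counts per kilobase in wildtype, Notch3 at 187 ± 13.1, Notch2 at 126 ± 13.2 and Notch4 at 55.4 ± 4.09 (SD, n = 3 each). Notch1 made up 36.7% of the summed level of the 4 receptors per kilobase in wildtype and 36.9% in the libraries labelled Zmiz1-KO. Notch3, known from pericytes and smooth muscle, made up 32.2% and 32.6%, and Notch4, known from endothelium, 9.51% and 8.29%.

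Normalized counts of Notch1, the receptor that Zmiz1 is known to act with, were 2007, 2045 and 2027 in wildtype and 2062, 2106 and 2006 under the Zmiz1-KO label. The groups overlapped, and the 6 libraries lay close together. Its log2 fold change was 0.022 with a 95% interval of -0.078 to 0.12 (limma adjusted p = 0.915), so the interval reached from a 0.947-fold to a 1.09-fold level. Of its exon bases, 14.5% also lie in exons of other genes, the largest overlap being with 0610009E02Rik on the opposite strand, and the library kit does not keep the strand.

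The other receptors did not pass either. Notch2 differed by 0.060 on the log2 scale (limma adjusted p = 0.827) and Notch3 by 0.036 (limma adjusted p = 0.884). Notch4 had the largest receptor difference, with 365 ± 26.9 normalized counts in wildtype and 322 ± 41.7 under the Zmiz1-KO label (SD, n = 3), or -0.19 on the log2 scale (95% interval -0.42 to 0.046, limma adjusted p = 0.571). Its groups overlapped, since replicate 1 labelled Zmiz1-KO had 367, and with each library left out the difference ran from -0.29 to -0.10.

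In the ligands, Dner accounted for 84.9% of the summed level per kilobase in wildtype and 85% in the libraries labelled Zmiz1-KO, and Jag2 for 7.88% and 7.49%. Dner had the narrowest interval of the ligands, a log2 fold change of -0.023 (95% interval -0.11 to 0.065, limma adjusted p = 0.90). The steps of the ligand order did not overlap in either group, except for Jag1 and Dll4, whose libraries overlapped in both.

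Dll4, the ligand of sprouting endothelium (chromosome 2, 119325784 to 119335962), gave 244, 244 and 270 normalized counts in wildtype and 325, 268 and 304 under the Zmiz1-KO label. Replicate 2 labelled Zmiz1-KO lay just below wildtype replicate 3, and the other Zmiz1-KO labelled libraries lay above all wildtype values. The log2 fold change was 0.24 (95% interval 0.0025 to 0.48), with an unadjusted limma p of 0.0479 and an adjusted p of 0.450. The summed level of the 6 endothelial markers overlapped between the groups, 5957 to 6235 normalized counts in wildtype and 6080 to 6451 under the Zmiz1-KO label. Their median log2 fold change was 0.00055, but they split. Cldn5 (0.11) was higher and Flt1 (-0.090) lower without overlap, an ordering met by 16.3% of all tested genes. Cdh5 (0.095), Slco1a4 (0.040), Tie1 (-0.039) and Pecam1 (-0.12) overlapped. The part of endothelial cells in the difference of Dll4 was not tested.

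Dlk1, a ligand-like protein without the receptor-binding DSL domain, had the largest log2 fold change of all members, 0.25, and also the widest interval, -0.36 to 0.85. Its normalized counts were 77.1, 149 and 65.1 in wildtype and 107, 127 and 92.5 under the Zmiz1-KO label. The high value of wildtype replicate 2 spread the wildtype group over the whole of the other group, and the limma adjusted p was 0.816. With each library left out in turn the log2 fold change of Dlk1 ran from 0.0096 to 0.60.

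The remaining ligands lay on either side of 0. Dll3, a Delta-like protein that acts inside the cell, differed by -0.20 on the log2 scale (limma adjusted p = 0.694), Jag2 by -0.098 (limma adjusted p = 0.528), Dll1 by 0.020 (limma adjusted p = 0.966) and Jag1 by -0.00081 (limma adjusted p = 0.999). All 4 had overlapping groups, and without replicate 2 labelled Zmiz1-KO the value of Dll3 was -0.095.

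Rbpj, the DNA-binding partner of the freed Notch domain, was the highest of the nuclear cofactors at 133 ± 17.9 normalized counts per kilobase in wildtype (SD, n = 3), above Maml1, Maml2 and Maml3 with no overlap between neighbors. Its log2 fold change was 0.059 (95% interval -0.13 to 0.25, limma adjusted p = 0.873). Of the 75-base stretches of Rbpj transcripts, 9.00% also occur in other genes, most often in Rbpj-ps3.

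The Mastermind coactivator Maml3 (chromosome 3, 51685907 to 52105076) gave 337, 345 and 321 normalized counts in wildtype and 407, 390 and 350 under the Zmiz1-KO label. All 3 values of the second group lay above wildtype, the lowest of them by a small margin. The log2 fold change was 0.19 (95% interval -0.015 to 0.39, limma adjusted p = 0.497). Maml1 differed by 0.064 and Maml2 by -0.067, with limma adjusted p of 0.872 and 0.868 and overlapping groups.

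The only member past an adjusted p of 0.1 was Dtx4, a deltex E3 ubiquitin ligase known to act on the Notch receptor, on chromosome 19 from 12466338 to 12501454. Dtx4 had 6183, 5546 and 5980 normalized counts in wildtype and 5254, 4882 and 5254 under the Zmiz1-KO label. Every wildtype library lay above every library of the other group. Its mean went from 5903 ± 326 to 5130 ± 215 (SD, n = 3 per group), which is -0.20 on the log2 scale (standard error 0.047, 95% interval -0.30 to -0.10, limma adjusted p = 0.0932). Leaving out wildtype replicate 2, the lowest of the wildtype values, brought Dtx4 past 0.05 (limma adjusted p = 0.0322), while leaving out any other library put it above 0.1, at 0.114 to 0.285. The limma adjusted p was 0.202 without robust estimation, 0.505 without the variance trend and 0.0106 under the replicate block, so the call depends on these settings. No other gene shares exons or 75-base stretches with Dtx4 in the annotation used.

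The deltex genes did not move together. Dtx3 had 5164, 5181 and 5279 normalized counts in wildtype and 5864, 5350 and 5533 under the Zmiz1-KO label. Here the second group lay above all wildtype values, opposite to Dtx4, with a log2 fold change of 0.099 (95% interval 0.0092 to 0.19). The unadjusted limma p of 0.0328 became 0.393 after adjustment. Dtx1 differed by 0.046 (limma adjusted p = 0.738) and Dtx2 by -0.054 (limma adjusted p = 0.886).

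Of the gamma-secretase genes, Ncstn, which encodes the nicastrin subunit, was the member whose groups did not overlap. Its normalized counts were 2650, 2554 and 2510 in wildtype and 2392, 2373 and 2293 under the Zmiz1-KO label. All 3 values labelled Zmiz1-KO were lower, and the spread within each group was small. The log2 fold change was -0.13 (95% interval -0.23 to -0.030), and the unadjusted limma p of 0.0133 became 0.299 after adjustment. The other members of the complex differed less, with Aph1a at -0.027, Psen2 at -0.014 and Psenen at 0.021 on the log2 scale. Among subunit genes that are not members, Aph1b differed by -0.051 and Aph1c by -0.24, further from 0 than Ncstn, with limma adjusted p of 0.810 and 0.525 and overlapping groups. Of the 75-base stretches, 37.0% of those of Aph1a (most often in Gm15429) and 18.7% of those of Psenen also occur elsewhere, so their values are less certain.

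The ADAM proteases, which make the first cut, differed by -0.054 (Adam10) and -0.072 (Adam17), with limma adjusted p of 0.805 and 0.791. With each library left out, Adam10 ran from -0.10 to -0.00074 and Adam17 from -0.13 to -0.014. Adam10 was the more abundant, at 853 ± 59.0 against 185 ± 15.4 normalized counts per kilobase in wildtype (SD, n = 3). Mib1, the ubiquitin ligase that readies ligands for endocytosis, had 5391 ± 79.7 normalized counts in wildtype and 5003 ± 337 in the libraries labelled Zmiz1-KO (SD, n = 3 per group). Its log2 fold change of -0.11 had an unadjusted limma p of 0.0328 and an adjusted p of 0.393, and replicate 2 labelled Zmiz1-KO, at 5386, lay within the wildtype range. Without that library, the limma adjusted p of Mib1 was 0.0781. Mib2 differed by -0.037 (limma adjusted p = 0.827).

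The fringe glycosyltransferases, which tune which ligands the receptor answers to, differed by -0.027 (Lfng), -0.018 (Mfng) and -0.018 (Rfng) on the log2 scale. Rfng was the most abundant of them per kilobase in both groups. The Notch inhibitors Numb and Numbl differed by -0.11 and 0.0015, with limma adjusted p of 0.675 and 0.996. Over all 17 processing enzymes and modifiers, 13 log2 fold changes were below 0 and 4 above, with a median of -0.027, and 16 intervals stayed within 1.25-fold. Of all tested genes, 49.9% lay above 0 and 61.0% had an interval within 1.25-fold.

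**Figure D3:**
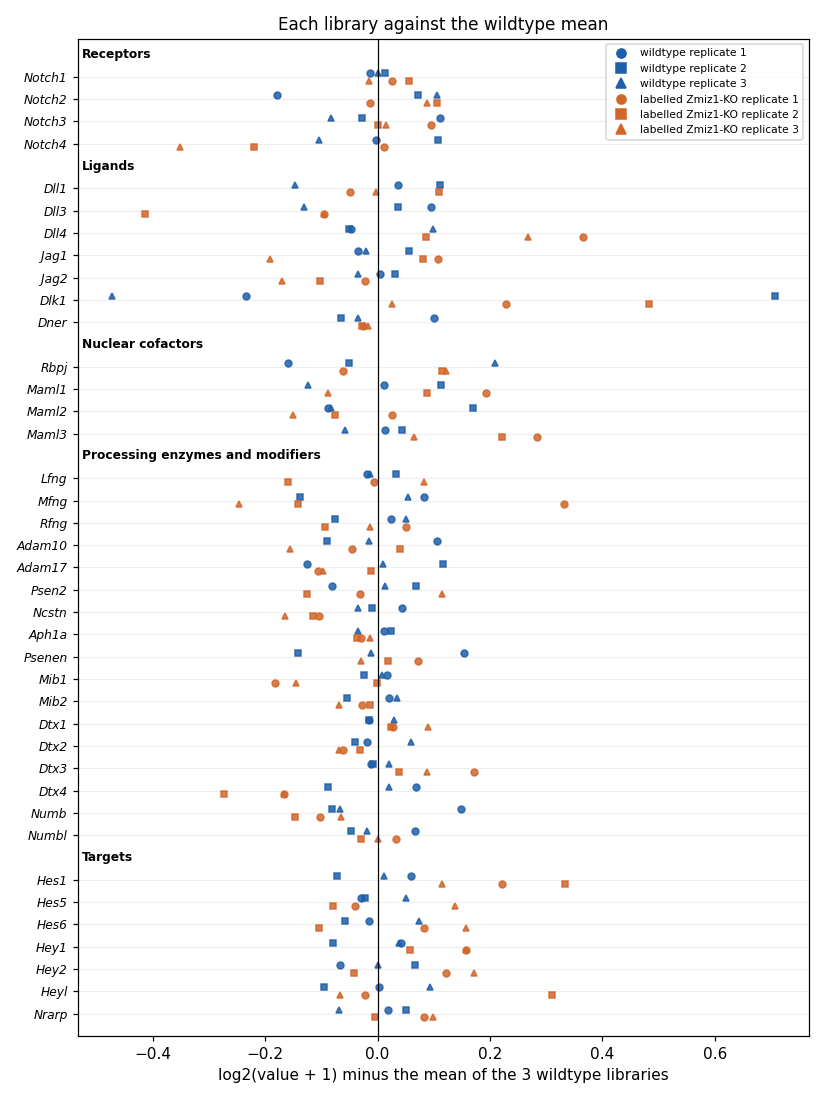
Log2(value + 1) of every library minus the mean of the 3 wildtype libraries, for each Notch pathway gene by role. Colors give the group and shapes the replicate number, and the 3 orange points of Dtx4 and Ncstn lie left of all blue ones while those of Maml3, Dtx3, Hes1 and Hey1 lie right of them.

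Rbpj binds to short sites in DNA. Promoters were searched for GTGGGAA, a core of the Rbpj motif, on both strands of the 300 bases around each start site in RefSeq on GRCm38.p6. The motif was found in 6.38% of 32851 promoters, or 7.25% of 27025 genes, and 0.256% of promoters held more than 1 copy. Of the 39 members, 32 had a promoter in the table and 5 of these held the motif, among them the targets Hes5 and Hey2, the only members with 2 copies. The promoters of the other members with a match were those of Psen2, Aph1a and Lfng. Those of the targets Nrarp and Hes6 were searched and held no match. Mfng, Mib1, Dtx3, Dtx4, Hes1, Hey1 and Heyl had no entry. The stretches of Hes5 (chr4:154960673-154960922, plus strand, up to the start site) and Hey2 (chr10:30842781-30843033, minus strand, to the end of the second motif) are shown since both hold a pair of motifs in opposite orientation, and capitals mark the motif.
Hes5: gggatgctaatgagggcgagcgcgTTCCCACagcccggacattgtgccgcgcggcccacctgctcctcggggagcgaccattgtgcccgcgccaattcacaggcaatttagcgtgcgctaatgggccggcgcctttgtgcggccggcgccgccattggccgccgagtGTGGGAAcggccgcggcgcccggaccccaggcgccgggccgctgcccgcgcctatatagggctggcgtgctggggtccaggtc
Hey2: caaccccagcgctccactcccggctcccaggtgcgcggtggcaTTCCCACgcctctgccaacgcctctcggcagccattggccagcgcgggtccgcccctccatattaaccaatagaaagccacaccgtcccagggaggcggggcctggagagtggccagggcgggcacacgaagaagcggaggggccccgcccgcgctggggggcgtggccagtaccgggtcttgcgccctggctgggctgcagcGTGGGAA
The match is a description of the sequence and was not tested for binding.

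The 7 genes grouped as targets all had a log2 fold change above 0, from 0.0061 to 0.22 with a median of 0.074. Of them, 0 passed. Hes6, which acts against Hes1, is counted among them. Over all tested genes, 49.9% of the log2 fold changes were above 0. Of the further targets that are not members and were tested, Sox9 (-0.036) and Fabp7 (-0.062) lay below 0. Hes7, Bhlhe40, Gfap, Id1 and Id3 lay above it. The 3 values labelled Zmiz1-KO lay above the 3 wildtype values in Hes1 and Hey1, the same ordering held for 8.1% of all tested genes, and the other 5 targets overlapped. With each library left out in turn, the sign turned in Hes5, Hes6 and Heyl.

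Hes1, a repressor that holds progenitors in their state, lies on chromosome 16 from 30064384 to 30067796. It had 226, 206 and 219 normalized counts in wildtype and 253, 274 and 235 under the Zmiz1-KO label. The second group was higher throughout. Its log2 fold change was 0.22, the largest of the targets, with a 95% interval of -0.021 to 0.47 (limma adjusted p = 0.508).

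Hey1, on chromosome 3 from 8663359 to 8667256, a repressor known from progenitors and vessels, had 1056, 971 and 1054 normalized counts in wildtype and 1145, 1068 and 1144 under the Zmiz1-KO label. Replicate 2 was the lowest of its group in both, and the groups did not overlap. The log2 fold change was 0.12 (95% interval -0.0081 to 0.26, limma adjusted p = 0.493).

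Hes5, a target of Notch in progenitors and astrocytes whose promoter is shown above, had 756, 761 and 800 normalized counts in wildtype and 751, 731 and 850 under the Zmiz1-KO label. Both the highest and the lowest of the 6 values carried the Zmiz1-KO label. The log2 fold change was 0.0061 with a 95% interval of -0.15 to 0.16 (limma adjusted p = 0.990), so a difference of 1.25-fold lies outside the interval. Of its exon bases 34.0% lie in exons of other genes, the largest overlap being with Gm20421 on the opposite strand, which has no normalized counts here.

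Hey2, the other promoter shown, had 143, 157 and 150 normalized counts in wildtype and 163, 145 and 169 under the Zmiz1-KO label. The groups overlapped through replicate 2 of the second group. Its log2 fold change was 0.084 (95% interval -0.21 to 0.38, limma adjusted p = 0.886).

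Heyl, known from vascular smooth muscle, had 400, 374 and 426 normalized counts in wildtype and 393, 496 and 382 under the Zmiz1-KO label. A single high value, that of replicate 2, set its log2 fold change of 0.074 (95% interval -0.15 to 0.30, limma adjusted p = 0.867), and without that library the log2 fold change was -0.045.

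Nrarp, a feedback inhibitor that the pathway switches on, had 1109, 1134 and 1044 normalized counts in wildtype and 1160, 1091 and 1173 under the Zmiz1-KO label. The groups overlapped, with a log2 fold change of 0.059 (95% interval -0.070 to 0.19, limma adjusted p = 0.791). Most of its exon bases, 79.4%, lie in exons of other genes, the largest overlap being with Gm38287 on the opposite strand. Gm38287 has no normalized counts here, and reads of overlapping exons cannot be told apart without strand. Hes6, a relative that acts against Hes1, differed by 0.045 (limma adjusted p = 0.880), and per kilobase it was the most abundant of the genes grouped as targets.

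**Figure D4:**
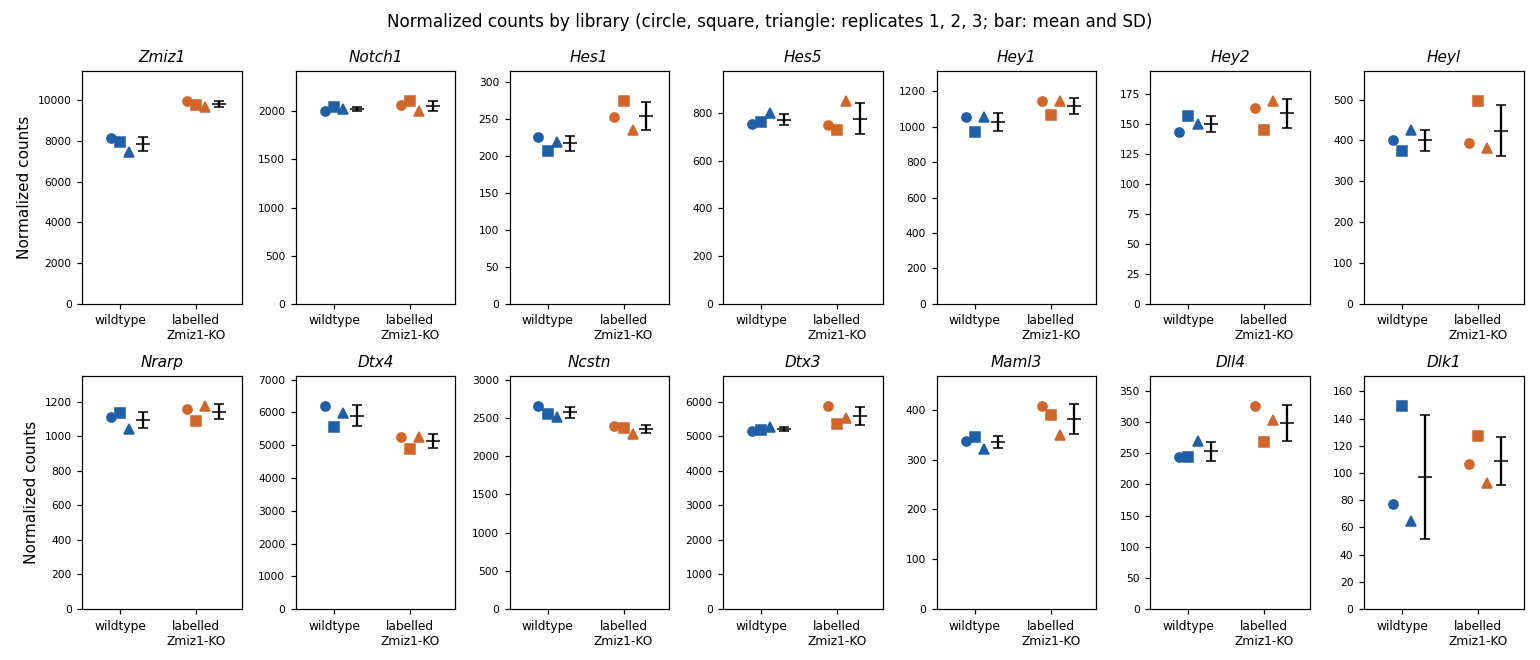
Normalized counts in each library (circle, square and triangle for replicates 1, 2 and 3; vertical axes from 0) with the mean and SD of each group of 3, for Zmiz1 and the 13 Notch pathway genes described by library. Zmiz1, Hes1, Hey1, Dtx3 and Maml3 lie higher and Dtx4 and Ncstn lower in all 3 libraries labelled Zmiz1-KO, and the other genes overlap.

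By library, wildtype replicates 1, 2 and 3 held the highest value of 10, 7 and 4 members and the lowest of 6, 7 and 6. Replicates 1, 2 and 3 labelled Zmiz1-KO held the highest value of 8, 3 and 7 members and the lowest of 1, 9 and 10. These counts were not set against all tested genes.

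A further 44 genes of the pathway that are not members were taken from a list of glycosyltransferases, ligases, corepressors, coactivators and further targets, and 42 of them were tested. Of these, 0 passed an adjusted p of 0.05 or 0.1 (limma), 5 had an unadjusted p under 0.05 (against 11.0% of all tested genes), and the groups did not overlap in 7 (against 16.3%), of which 4 were higher. Both counts are near the share over all tested genes. The smallest adjusted p were those of Neurl1a, a ubiquitin ligase of Notch ligands, and of Tle3, a Groucho corepressor that works with Hes proteins. Neurl1a had 3715, 3593 and 3750 normalized counts in wildtype and 4092, 4017 and 3936 under the Zmiz1-KO label, a difference of 0.12 on the log2 scale (limma adjusted p = 0.263). Tle3 had 3023, 2798 and 3020 normalized counts in wildtype against 2700, 2701 and 2644, a difference of -0.14 on the log2 scale (limma adjusted p = 0.271). In both genes the groups did not overlap, in opposite directions.

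The tissue carried the markers of cortical excitatory neurons, with Slc17a7 at 18675 to 20879 normalized counts over the 6 libraries. Summed marker levels did not overlap between the groups for 4 of 11 cell type lists. Taken singly, 16.3% of all tested genes did not overlap. Those of oligodendrocyte precursors and oligodendrocytes were lower under the Zmiz1-KO label (14931 to 15583 normalized counts, against 16694 to 18603 in wildtype). Interneuron markers were higher (19859 to 21382 against 14976 to 18783). So were those of meningeal fibroblasts (9618 to 10144 against 7376 to 8541) and of striatum (7191 to 7855 against 4657 to 6649). Of the interneuron list, Gad1, Gad2, Sst and Slc32a1 are named by the study as changed in these libraries, so the list was not independent of these data. Gad1 and Gad2 overlapped between the groups. No marker of that list passed an adjusted p of 0.05 (limma, 0.0598 for Sst to 0.578 for Gad2). Single markers passed an adjusted p of 0.05 (limma) in 3 lists, namely Olig1 and Aqp4, which were lower, and Col1a2, which was higher. Of all tested genes, 0.411% passed it. Lum (0.059 on the log2 scale) and Drd1 (0.22) overlapped between the groups. In the excitatory neuron list, whose sums overlapped, Neurod2 (-0.17) was lower without overlap and Camk2a was at 0.053. The astrocyte sums overlapped (62959 to 68295 in wildtype against 57368 to 65241), with a list median of -0.052 on the log2 scale. Besides Aqp4, Slc1a3 (-0.095, without overlap), Slc1a2 (-0.12), Aldh1l1 (-0.052) and Aldoc (-0.028) lay below 0. Gjb6 (0.23) and Gja1 (0.083) lay above it. In the list of Olig1 the values of Cspg4 and Sox10 were 0.025 and -0.0082. No marker of any list was at 0 in every library. The part of these cell types in the differences of the Notch genes was not tested, and in whole tissue fewer cells of a type and less RNA per cell cannot be told apart.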

How the data were processed

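Total RNA was extracted from P7 cortices (a treatment note of the labels speaks of progenitors, the extraction note of cortex) and libraries were made with a TruSeq kit (v2) that does not keep the strand. The authors aligned reads to mm10 with STAR in Illumina BaseSpace and normalized counts with DESeq2, and deposited them as 1 normalized signal value per gene and library, called normalized counts here. Tool versions and the annotation are not given in the sources used here. Library sums were 32661979 to 33239707, which follow the normalization. The most common low value of a library was 1.83 to 2.11, but the step differed between genes, so read counts could not be rebuilt and depth is not known exactly.

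Values were analysed as log2(value + 1) in R 4.3.3 with limma 3.58.1, using a mean-variance trend and robust estimation, for 15800 genes with at least 10 in at least 3 libraries, without covariates. Two-sided p values received the Benjamini-Hochberg adjustment over all tested genes, and intervals are limma's 95% confidence intervals. The procedure was tested on simulated data. Coordinates, merged exon lengths and shared 75-base stretches (both strands) come from GENCODE on GRCm38, and promoters from RefSeq (GRCm38.p6). Figures were drawn with matplotlib (version 3.10.9).

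Members and lists were chosen with earlier results of these data known. Library values are given for Notch1, Hes1, Hes5, Hey1, Hey2, Heyl and Nrarp, for members past an adjusted p of 0.1 or with groups that do not overlap, and for the 3 largest log2 fold changes, and among the other pathway genes for the 2 smallest adjusted p. Alternatives were limma-voom, TMM, median-ratio and upper-quartile scaling, other filters and pseudocounts, no trend, no robust estimation, a block for the replicate number, Xist as a covariate, and each library left out in turn.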

Additional observations from a re-analysis of the deposited data

How the results depend on the processing

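The count of Notch genes past an adjusted p of 0.05 was 0 as reported and stayed 0 under 12 of 13 alternatives that kept all libraries and the threshold. It was 1, Dtx4 in each case, under the replicate block, without wildtype replicate 2 and at an adjusted p of 0.1, and ran from 0 to 1 with each library left out. The other pathway genes gave 0 under every alternative run. Over all tested genes the count of 65 became 17 without robust estimation, 0 without the trend (limma, with 1396 genes at an unadjusted p under 0.05), 168 under the replicate block, in which the replicate number is a term, and 106 at an adjusted p of 0.1. With each library left out it ran from 12 to 151, at 30 without wildtype replicate 1, and 17, 151 and 12 without replicates 1, 2 and 3 labelled Zmiz1-KO. Deviations of same-numbered libraries correlated at -0.0051, -0.11 and -0.0063, so the numbers were not taken as pairs. Of 780 log2 fold changes of members under the alternatives, 34 turned sign, in 17 members whose reported value was at most 0.074 in size. Jag1 was 0.0027 with TMM scaling, 0.0053 with upper-quartile scaling, 0.0051 with limma-voom and 0.0037 with Xist as a covariate, and Numbl was -0.0026 with that covariate. With each library left out, the log2 fold changes that turned sign ran as follows: Notch2 (-0.029 to 0.11), Notch3 (-0.0052 to 0.092), Dll1 (-0.054 to 0.076), Jag1 (-0.055 to 0.094), Dner (-0.056 to 0.027), Rbpj (-0.021 to 0.16), Maml1 (-0.00037 to 0.14), Maml2 (-0.11 to 0.018), Lfng (-0.082 to 0.038), Mfng (-0.19 to 0.095), Rfng (-0.056 to 0.019), Psen2 (-0.079 to 0.042), Psenen (-0.050 to 0.098), Numbl (-0.022 to 0.034), Hes5 (-0.060 to 0.049), Hes6 (-0.011 to 0.12), Heyl (-0.045 to 0.14). Precision rests on 3 libraries per group and is lowest for the members with few counts, such as Dlk1.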
